A study of Mus musculus with 2 samples.

Results

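Bone morphogenetic proteins (BMPs) and the genes that receive and answer their signal were followed through the cell types of the mouse liver in MASH (metabolic dysfunction-associated steatohepatitis). The set comprised 10 genes, found by symbol among the 32285 genes listed for each library, and every one of the 10 was listed once. It held 6 ligands (*Bmp2*, *Bmp4*, *Bmp5*, *Bmp6*, *Bmp10* and *Gdf2*, which encodes BMP9), a pair of receptors (*Bmpr2* and *Acvrl1*, which encodes ALK1), the inhibitory Smad gene *Smad6* and the target gene *Id1*. Another 47 genes of the pathway are described by counts, with values for those named.

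BMP ligands bind pairs of type I and type II serine/threonine kinase receptors, which phosphorylate SMAD1, SMAD5 and SMAD9. These join SMAD4 and enter the nucleus, where they switch on ID genes, the inhibitory Smads and, in hepatocytes, *Hamp*, which encodes the iron hormone hepcidin. In the liver, BMP2 and BMP6 from endothelial cells are known for setting hepcidin, and BMP9 and BMP10 are known as high-affinity ligands of ALK1 on endothelium.

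The data were 2 single-nucleus RNA libraries, 1 per genotype, from livers of male C57BL6/J mice that for 5 months ate a MASH diet, with 40 kcal% from fat, 2% cholesterol and 20 kcal% from fructose, starting at an age of 10 to 12 weeks. The Flox library, titled WT_MASH in the labels, came from *Themis* flox/flox mice. The HKO library came from mice that carried the same floxed alleles with an Alb-Cre transgene, in which the albumin promoter drives Cre recombinase in hepatocytes. Livers of several mice were pooled for each genotype before nuclei were stained and sorted, so each genotype is 1 sample, no p-value can be given, and the 95% intervals below cover counting error only.

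The Flox library held 9363 nuclei and 58171337 UMIs (unique molecular identifiers, each standing for 1 captured RNA molecule), and the HKO library 10748 nuclei and 40475938 UMIs, with 27 cell barcodes in common. The median nucleus held 6216 UMIs in the Flox and 2227.5 in the HKO library. *Themis* itself stood at 162 CPM (UMIs per 1000000 UMIs summed over these nuclei, interval 159 to 166) in hepatocyte nuclei of the Flox library and at 246 CPM (240 to 252) in those of the HKO library. It was therefore higher, not lower, in hepatocytes of the library labelled HKO. Where the removed exons lie relative to the counted 3′ ends is not given in the sources used here, so this level does not check the label, and directions below are given between the libraries as labelled.

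Nuclei were assigned to cell types by UMIs of marker genes, none of which is in the BMP set. This gave 741 and 1230 endothelial, 800 and 1142 stellate, 581 and 1445 macrophage, 95 and 344 cholangiocyte and 5638 and 4368 hepatocyte nuclei in the Flox and HKO libraries. All markers on the hepatocyte, endothelial, stellate and macrophage lists were detected in their own type in both libraries. RNA of hepatocytes was present in other nuclei: the 15 hepatocyte markers reached 9.32% to 15.7% of their hepatocyte level in endothelial, stellate and macrophage nuclei, and 23.5% and 14.96% in Flox and HKO cholangiocyte nuclei. In the other direction, the endothelial and stellate marker lists reached 0.132% to 0.272% of their own level in hepatocyte nuclei. A nucleus in which another type's list reached its minimum of UMIs was not called a hepatocyte, so this range is held down by the rule.

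Because the RNA was tagged at its 3′ end, CPM was not scaled by gene length, and levels are compared for the same gene between cell types or libraries, not between genes.

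Sequence upstream of 7 of the 10 genes was matched in RefSeq (GRCm38.p6). The 250 bases before the transcription start are printed for *Bmp5*, *Bmp10* and *Gdf2*, because their UMIs lay almost wholly in stellate nuclei, and for *Bmp4*, because it was the ligand that differed most in endothelial nuclei. Coordinates are of GRCm38. Capitals mark GATAA, the core letters bound by GATA factors, and CAGAC, a SMAD-binding box, searched on both strands (TTATC and GTCTG on the other). The choice of GATAA was made after the letters had been read.
Bmp5, chr9:75775115-75775364, plus strand: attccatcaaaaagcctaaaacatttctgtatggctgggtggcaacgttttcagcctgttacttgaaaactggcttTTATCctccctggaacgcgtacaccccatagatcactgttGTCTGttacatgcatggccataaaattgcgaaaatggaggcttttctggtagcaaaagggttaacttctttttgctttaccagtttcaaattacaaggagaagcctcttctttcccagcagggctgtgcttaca
Bmp10, chr6:87428744-87428993, plus strand: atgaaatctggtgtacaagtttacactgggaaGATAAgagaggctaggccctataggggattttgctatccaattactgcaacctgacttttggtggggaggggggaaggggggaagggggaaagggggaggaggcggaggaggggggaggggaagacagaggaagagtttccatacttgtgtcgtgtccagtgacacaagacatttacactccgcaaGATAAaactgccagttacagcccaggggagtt
Gdf2, chr14:33940789-33941038, plus strand: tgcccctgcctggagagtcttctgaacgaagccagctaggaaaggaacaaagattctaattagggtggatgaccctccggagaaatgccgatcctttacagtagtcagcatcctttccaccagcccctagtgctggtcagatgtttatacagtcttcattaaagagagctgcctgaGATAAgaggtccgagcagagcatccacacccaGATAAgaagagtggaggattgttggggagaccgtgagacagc
Bmp4, chr14:46390670-46390919, minus strand: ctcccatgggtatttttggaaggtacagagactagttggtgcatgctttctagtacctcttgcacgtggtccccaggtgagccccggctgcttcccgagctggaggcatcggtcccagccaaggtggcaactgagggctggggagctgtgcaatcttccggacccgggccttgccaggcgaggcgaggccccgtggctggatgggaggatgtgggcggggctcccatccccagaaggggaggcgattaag

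GATAA, chosen after the letters had been read, was present in the windows of all 3 stellate ligands and in none of the other 4 windows matched. Because of that choice, the split is no test. It was found 174 bases before the start of *Bmp5*, 218 and 32 before that of *Bmp10*, and 74 and 42 before that of *Gdf2*. Of all 32851 RefSeq windows of this length, 22.6% held it. CAGAC was found in the windows of *Bmp5* and *Bmp6* and in 42.2% of all windows, and the BMP-type SMAD box GGCGCC in that of *Bmpr2* and in 9.59% of all. These matches are letters in a window and not binding sites.

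**Figure D1:**
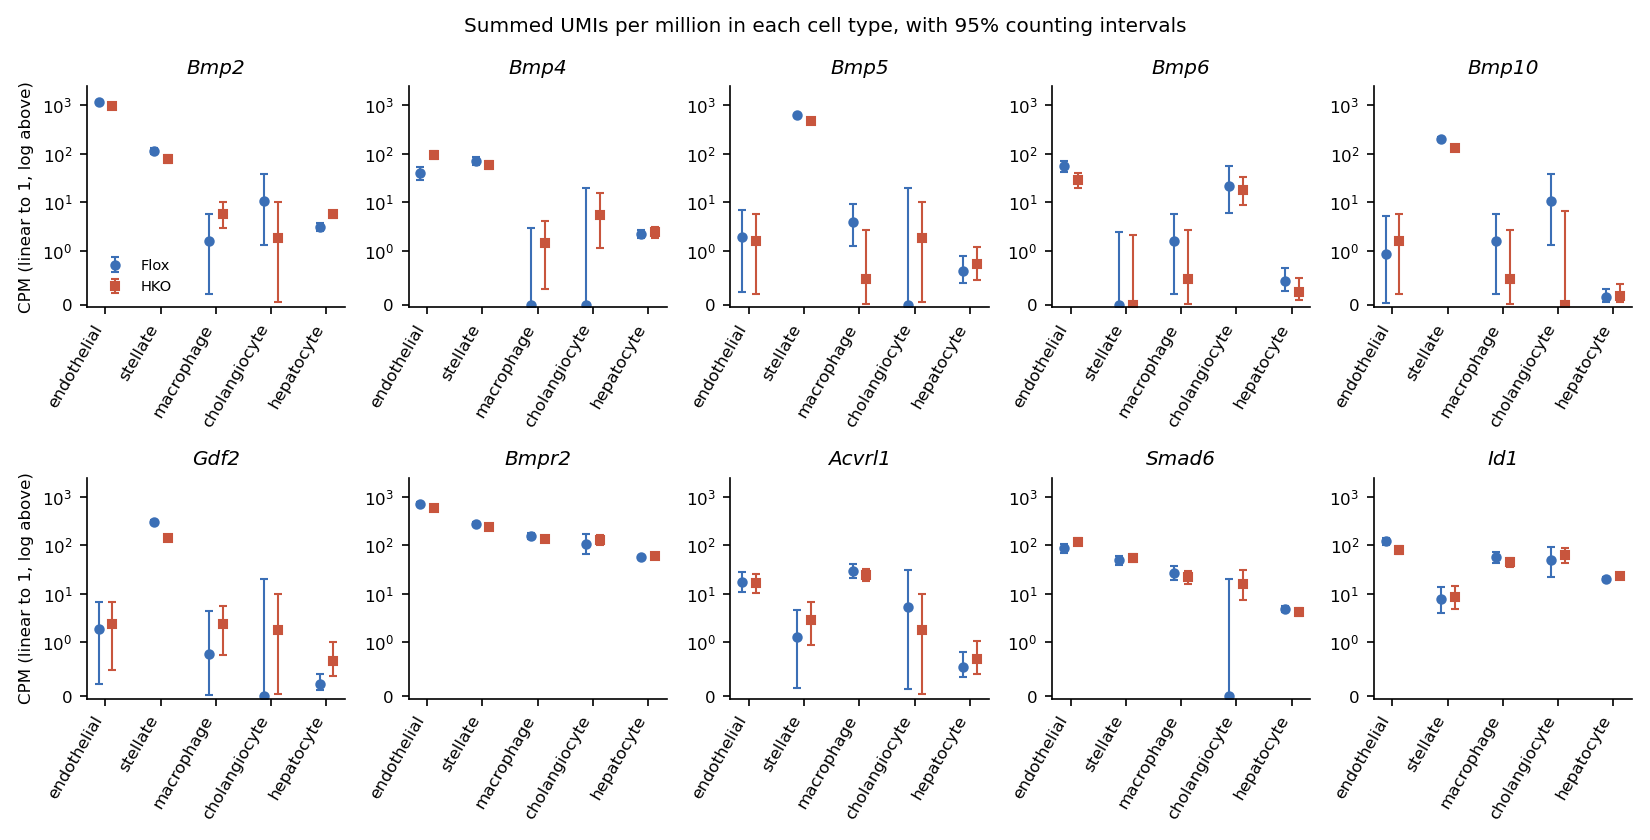
Level of each gene in each cell type, as CPM (vertical axis, linear to 1 and logarithmic above), in the Flox library (blue circles) and the HKO library (red squares), with 95% counting intervals. *Bmp5*, *Bmp10* and *Gdf2* stand at 133 CPM or more in stellate nuclei, and *Bmpr2* stands at 56.3 CPM or more in the 5 types described.

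Stellate cells, the vitamin A-storing pericytes of the sinusoid, were the source of 3 ligands. *Bmp5* (ENSMUSG00000032179, chr9:75775364-75900310, plus strand), a ligand of the BMP5/6/7 subgroup, had 92.3% of its UMIs in stellate nuclei in the Flox library and 92.8% in the HKO library. *Bmp10* (ENSMUSG00000030046, chr6:87428994-87437677, plus strand) had 91.2% and 93.1% of its UMIs there. *Gdf2* (ENSMUSG00000072625, chr14:33941039-33947198, plus strand) had 92.5% and 87.3%. Levels in stellate nuclei lay above those of every other type without overlap of the intervals, for all 3 genes in both libraries, whereas the remaining types largely overlapped with each other.

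All 3 stellate ligands were lower in the library labelled HKO. *Bmp5* stood at 635 CPM (596 to 676) in Flox stellate nuclei and at 474 CPM (442 to 507) in HKO stellate nuclei, a ratio of 0.746 (interval 0.679 to 0.820). *Bmp10* stood at 202 CPM (180 to 226) against 133 CPM (116 to 151), and its ratio was 0.658 (0.552 to 0.783). *Gdf2* stood at 307 CPM (280 to 336) in the Flox library and at 139 CPM (122 to 158) in the HKO library. Its ratio of 0.455 (0.388 to 0.532) was the smallest of the 3, with an interval that did not overlap those of *Bmp5* and *Bmp10*. With each nucleus thinned to 1000 UMIs the ratios were 0.548 for *Gdf2*, 0.699 for *Bmp10* and 0.737 for *Bmp5*. When thinned nuclei were divided by collagen UMIs (below), the intervals of the 3 genes overlapped.

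*Gdf2* was the only one of 8 members with at least 20 UMIs in stellate nuclei that was at least 2-fold lower in the HKO library, and none was at least 2-fold higher. When each nucleus was thinned its ratio was 0.548, short of 2-fold. Over all genes tested in stellate nuclei with the same filter, 5.11% were at least 2-fold lower and 2.41% at least 2-fold higher. The median log2 ratio was -0.34 over the 8 members and -0.06 over all genes. The summed level of the 14 stellate markers moved in the same direction, from 18088 to 13000.2 CPM, a ratio of 0.719 (0.706 to 0.732). That ratio lies inside the intervals of *Bmp5* and *Bmp10* and above that of *Gdf2*, and its part in these ratios was not tested.

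The shares of nuclei with a UMI were lower in HKO as well. They were taken after every nucleus had been thinned to 1000 UMIs, which left out 17 Flox and 170 HKO stellate nuclei. A *Gdf2* UMI was found in 22.2% of Flox stellate nuclei (174 of 783, exact interval 19.4% to 25.3%) and in 13.0% of HKO stellate nuclei (126 of 972, 10.9% to 15.2%). *Bmp10* UMIs were found in 17.5% (14.9% to 20.3%) and 12.0% (10.1% to 14.2%). For *Bmp5* the shares were 43.2% (39.7% to 46.7%) and 33.7% (30.8% to 36.8%). In hepatocyte nuclei at the same depth the shares were 0.143% and 0.0696% for *Bmp5* and 0.0356% and 0.0696% for *Gdf2*, and no thinned hepatocyte nucleus held a *Bmp10* UMI, which at this depth allows a share of up to 0.0535% in the Flox and 0.0696% in the HKO library. Before thinning, 5 of 5638 Flox (0.0887%) and 4 of 4368 HKO hepatocyte nuclei (0.0916%) held one. Before thinning, at median depths of 1782 and 1416 UMIs, the stellate shares of *Gdf2* were 37.0% and 15.9%.

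Fibrillar collagen transcripts mark activated stellate cells, so the thinned stellate nuclei were divided by their UMIs of *Col1a1*, *Col1a2* and *Col3a1*, a division chosen after the data had been seen. *Gdf2* was lower in the HKO library in both divisions. Among nuclei with 0 or 1 collagen UMI it stood at 282 CPM in 380 Flox nuclei and 155 CPM in 432 HKO nuclei, a ratio of 0.551 (0.400 to 0.754). Among nuclei with 2 or more it stood at 270.5 CPM in 403 and 148 CPM in 540 nuclei, a ratio of 0.548 (0.405 to 0.738). For *Bmp10* the ratio was 0.849 (0.619 to 1.16) in nuclei with little collagen and 0.565 (0.392 to 0.810) in nuclei with more, and these intervals overlap. *Lrat*, the retinol-esterifying enzyme of stellate cells and a marker used to assign them, had ratios of 0.662 (0.573 to 0.763) and 0.653 (0.569 to 0.749) in the same divisions. *Reln*, another stellate marker, had ratios of 0.847 (0.772 to 0.929) and 0.721 (0.659 to 0.788).

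Detection of 1 ligand was compared between stellate nuclei with and without a UMI of another. A nucleus without a UMI at this depth may still hold the transcript. In the thinned Flox library, 33 nuclei held UMIs of both *Bmp10* and *Gdf2*, and *Gdf2* was found in 24.1% of nuclei with a *Bmp10* UMI against 21.8% of those without. In the HKO library the shares were 18.8% and 12.2%, with 22 nuclei holding both. *Bmp5* was found in 44.5% of Flox nuclei with a *Bmp10* UMI against 42.9% of those without, and in 46.2% against 32.0% in the HKO library.

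**Figure D2:**
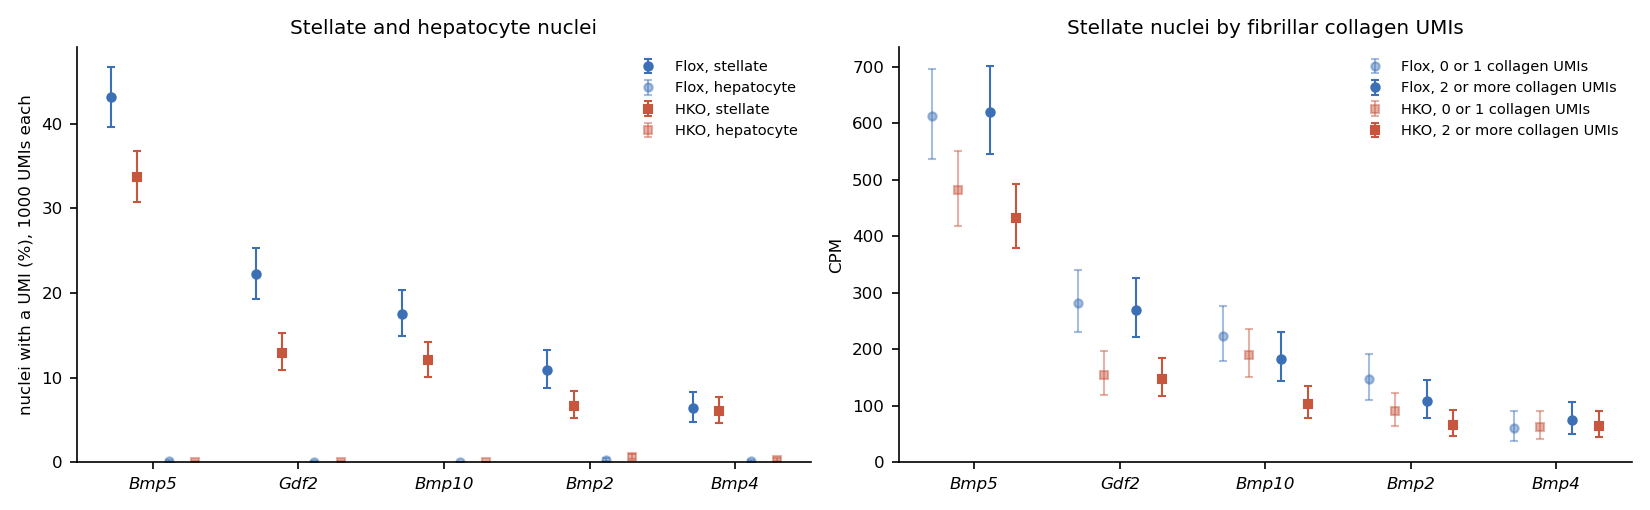
Ligand genes in stellate nuclei of the Flox (blue circles) and HKO (red squares) libraries, each nucleus thinned to 1000 UMIs, with 95% counting intervals. Left, percent of stellate nuclei (full colour) and hepatocyte nuclei (pale) with a UMI. Right, CPM in stellate nuclei with 0 or 1 (pale) or 2 or more (full colour) fibrillar collagen UMIs. *Gdf2* is lower in HKO in both divisions, with ratios of 0.551 and 0.548.

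Stellate nuclei also held *Bmp2* and *Bmp4*, close paralogues that signal through the BMPR1A and BMPR1B receptors. *Bmp2* stood at 113 CPM (96.7 to 131) in Flox and 77.9 CPM (65.2 to 92.2) in HKO stellate nuclei, a ratio of 0.690 (0.546 to 0.869). *Bmp4* stood at 70.5 CPM (57.8 to 85.1) against 59.3 CPM (48.3 to 71.9), and the interval of its ratio, 0.841 (0.635 to 1.11), holds 1. No *Bmp6* UMI was found in stellate nuclei of either library, which allows up to 1.96 CPM in Flox and 1.74 CPM in HKO.

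Endothelial nuclei carried most of the *Bmp2* UMIs (ENSMUSG00000027358, chr2:133552159-133562885, plus strand), with 67.9% of its UMIs in the Flox library and 76.2% in the HKO library. Nuclei left out as mixed held another 14.3% and 4.91%. The level was 1146 CPM (1082 to 1212) in Flox endothelial nuclei and 978 CPM (925 to 1034) in HKO endothelial nuclei. Stellate nuclei came next in the order, and hepatocytes, macrophages and cholangiocytes followed at 10.8 CPM or less with overlapping intervals. The ratio of 0.854 (0.788 to 0.925) between the libraries was close to that of the 16 endothelial markers, 0.833 (0.816 to 0.851), and it was 0.999 when cell types were taken from clusters. Thinning left out 104 of 741 Flox and 687 of 1230 HKO endothelial nuclei, so thinned endothelial values here and below cover the deeper nuclei only. After thinning, 56.2% of Flox (52.2% to 60.1%) and 52.7% of HKO endothelial nuclei (48.4% to 56.9%) held a *Bmp2* UMI, and these intervals overlap. The hepatocyte shares were 0.339% and 0.650%.

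*Bmp4* (ENSMUSG00000021835, chr14:46383520-46390669, minus strand) was the ligand that stood higher in HKO endothelial nuclei. It had 43 UMIs, or 40.4 CPM (29.3 to 54.4), in the Flox library and 121 UMIs, or 95.3 CPM (79.1 to 114), in the HKO library. The ratio was 2.36 (1.65 to 3.42), and between 2.12 and 2.75 under the alternative settings. By CPM, *Bmp4* was higher in stellate than in endothelial nuclei in Flox, and in HKO the order was the opposite, without overlap of the intervals in either library. The shares of thinned nuclei with a *Bmp4* UMI did not reverse. They were 6.39% (4.78% to 8.33%) in stellate and 2.51% (1.44% to 4.05%) in endothelial Flox nuclei. In HKO they were 6.07% (4.65% to 7.76%) and 4.24% (2.70% to 6.29%), and these intervals overlap. *Bmp4* was the only one of 7 members with at least 20 UMIs in endothelial nuclei to reach 2-fold in either direction, beside 2.35% of all genes at least 2-fold higher and 3.12% at least 2-fold lower in HKO endothelial nuclei.

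Most endothelial *Bmp4* UMIs, 29 of 43 in Flox and 97 of 121 in HKO, lay in vascular nuclei. Endothelial nuclei were divided by UMIs of 8 sinusoidal markers (such as *Stab2* and *Clec4g*) and 8 vascular markers (such as *Vwf* and *Cd34*), which gave 654 sinusoidal and 72 vascular nuclei in the Flox library and 1002 and 122 in the HKO library. In sinusoidal nuclei *Bmp4* was at 11.5 CPM (5.75 to 20.6) in Flox and 12.4 CPM (6.58 to 21.1) in HKO, a ratio of 1.07 (0.444 to 2.65). In vascular nuclei it was at 309 CPM (207 to 444) in Flox and 761 CPM (617 to 928) in HKO, a ratio of 2.46 (1.61 to 3.86). Vascular nuclei made up 9.72% of Flox and 9.92% of HKO endothelial nuclei.

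The vascular *Bmp4* UMIs were spread over many nuclei. They came from 15 of 72 Flox nuclei and 43 of 122 HKO nuclei, and the richest nucleus held 5 of 29 and 8 of 97 UMIs. With every nucleus thinned to 1000 UMIs before the division, 11 of 55 Flox vascular nuclei (20.0%, 10.4% to 33.0%) and 16 of 54 HKO vascular nuclei (29.6%, 17.98% to 43.6%) held a *Bmp4* UMI, and these intervals overlap. The ratio of levels in these thinned nuclei was 2.09 (1.16 to 3.91).

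Of the endothelial marker lists, one of 5 pericentral genes (*Rspo3*, *Wnt9b*, *Wnt2*, *Thbd* and *Lhx6*), which mark endothelium around the central vein, differed most between thinned endothelial nuclei with and without a *Bmp4* UMI. Its summed level was 6437.5 CPM (5255 to 7807) in the 16 Flox nuclei with *Bmp4* and 821 CPM (752 to 896) in the other 621. In the HKO library it was 5174 CPM (4286 to 6191) in 23 nuclei with *Bmp4* and 462 CPM (405 to 524) in the other 520. The vascular list stood at 3312.5 against 826 CPM in Flox and at 3696 against 752 CPM in HKO. The sinusoidal list was lower in nuclei with *Bmp4*, at 1062.5 against 6680 CPM in Flox and 1217 against 5617 CPM in HKO. The pericentral list was not limited to endothelium. Unthinned, it stood at 906 CPM in stellate and 932 CPM in endothelial nuclei of Flox, and at 424 and 672 CPM in HKO. No UMI of *Wnt9b*, *Wnt2* or *Lhx6* was found in stellate nuclei. Values per gene are not given here, so the list does not place the *Bmp4* nuclei at the central vein.

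*Bmp2* showed the opposite distribution over the endothelium. Its level was 1260.1 CPM (1190 to 1333) in Flox sinusoidal nuclei and 149 CPM (81.6 to 250.5) in Flox vascular nuclei, which was 8.44-fold (5.01 to 15.5) higher in the sinusoids. In the HKO library the levels were 1120.4 CPM and 141 CPM, a 7.94-fold (5.001 to 13.4) difference. Among thinned Flox endothelial nuclei, *Bmp4* UMIs were found in 0.838% of those with a *Bmp2* UMI and in 4.66% of those without, and in the HKO library in 1.049% and 7.78%.

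*Bmp6* (ENSMUSG00000039004, chr13:38345107-38500302, plus strand), the endothelial ligand best known for its part in iron sensing, stood at 55.5 CPM (42.2 to 71.5) in Flox and 28.4 CPM (19.9 to 39.3) in HKO endothelial nuclei. The ratio was 0.511 (0.328 to 0.787), or 1.96-fold lower in HKO, and it ranged from 0.502 to 0.673 under the alternative settings. In sinusoidal nuclei the ratio was 0.552 (0.341 to 0.879), from 51 and 31 UMIs. When nuclei were thinned before the division it was 0.639 with an interval of 0.318 to 1.23, which holds 1. Vascular nuclei held 8 *Bmp6* UMIs in Flox and 1 in HKO. Cholangiocytes followed at 21.7 CPM (5.90 to 55.5) in Flox and 18.05 CPM (8.65 to 33.2) in HKO, from 4 and 10 UMIs, with intervals that overlap those of endothelial nuclei.

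**Figure D3:**
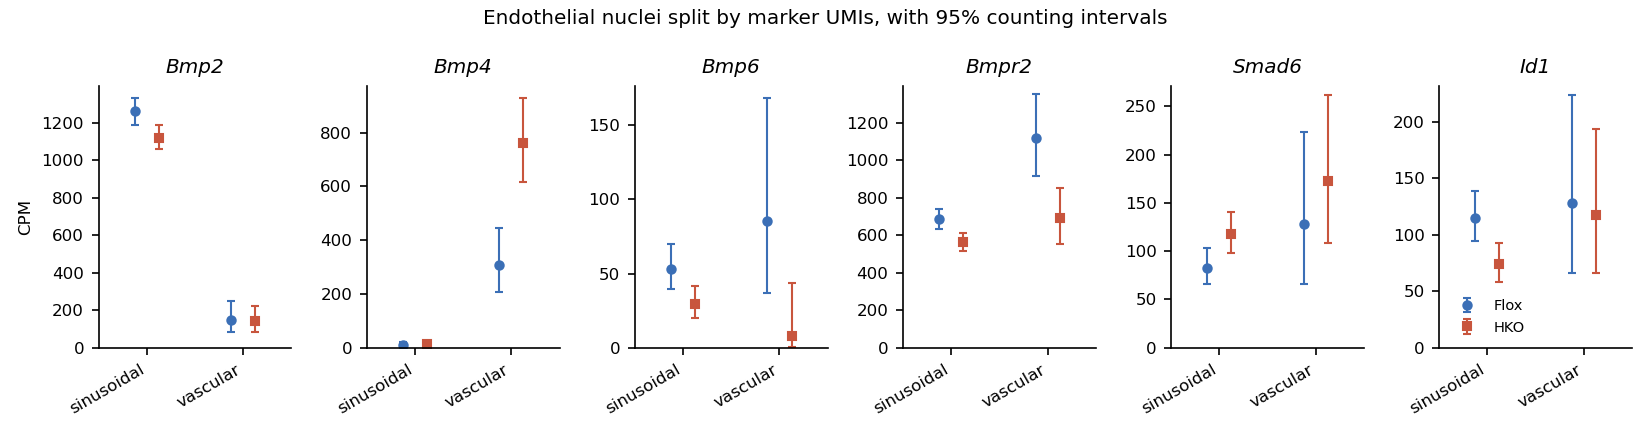
Level (CPM, linear axis from 0) of 6 genes in sinusoidal and vascular endothelial nuclei of the Flox (blue circles) and HKO (red squares) libraries, with 95% counting intervals. *Bmp4* in vascular nuclei is at 309 CPM in Flox and 761 CPM in HKO, while *Bmp2* in sinusoidal nuclei is at 1260.1 and 1120.4 CPM.

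In hepatocyte nuclei the stellate ligands were scarce. *Bmp5* reached 0.0967% and 0.160% of its stellate level in Flox and HKO hepatocyte nuclei, and *Bmp10* 0.0675% and 0.114%, each below the 0.132% and 0.234% that the stellate marker list reached there. *Gdf2* was at 0.0742% in Flox and 0.461% in HKO hepatocyte nuclei, from 10 and 17 UMIs, so it lay below that list in Flox and above it in HKO. *Bmp2* was at 3.09 CPM (2.60 to 3.66) in Flox and 5.71 CPM (4.84 to 6.70) in HKO hepatocyte nuclei. That is 0.270% and 0.584% of its endothelial level, beside 0.170% and 0.272% for the endothelial marker list. The assignment rule holds these lists down in hepatocyte nuclei, so they do not measure RNA carried over for genes outside the lists.

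*Bmp4* in hepatocytes was at 2.21 CPM (1.79 to 2.69) in Flox and 2.42 CPM (1.87 to 3.09) in HKO, 3.13% and 4.09% of its stellate level. The stellate and endothelial marker lists reached less, but the assignment rule holds them down there. The *Bmp4* ratio of 1.10 (0.788 to 1.52) became 1.82 when each nucleus was thinned. Most of these UMIs, 85 of 97 in Flox and 61 of 64 in HKO, were in nuclei with more UMIs of periportal (zone 1) than of zone 3 markers. Hepatocyte nuclei were divided by UMIs of 7 zone 1 markers (such as *Hal* and *Cyp2f2*) and 9 zone 3 markers (such as *Glul* and *Cyp2e1*). The division had no midlobular class, and the zone 1 group took 63.9% of Flox and 72.3% of HKO hepatocyte nuclei. *Bmp4* was at 2.93 CPM in zone 1 and 0.760 CPM in zone 3 nuclei of the Flox library, 3.85-fold (2.05 to 8.01) higher in zone 1. In the HKO library it was at 3.01 and 0.344 CPM, and the zone 3 value rests on 2 UMIs. *Bmp2* in Flox hepatocyte nuclei was in the opposite order, with 2.38 CPM in zone 1 and 4.49 CPM in zone 3.

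Of the receptors, *Bmpr2* (ENSMUSG00000067336, chr1:59763400-59879014, plus strand) encodes the type II receptor shared by most BMPs and was found in all 5 types. In the Flox library the order was endothelial at 718 CPM (668 to 771), stellate at 280 CPM (254 to 308), macrophage at 158 CPM (137 to 181), cholangiocyte at 108 CPM (66.2 to 167) and hepatocyte at 56.3 CPM (54.1 to 58.5). The HKO library had the same order, at 574, 241, 132, 129.9 and 61.3 CPM. In both libraries only macrophages and cholangiocytes were neighbours with overlapping intervals.

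The *Bmpr2* ratio between the libraries was 0.799 (0.721 to 0.886) in endothelial, 0.861 (0.751 to 0.988) in stellate, 0.833 (0.692 to 1.003) in macrophage and 1.20 (0.723 to 2.08) in cholangiocyte nuclei. In hepatocytes the ratio was 1.09 (1.02 to 1.16), and 0.993 when each nucleus was thinned. Thinning gave 0.940 in stellate nuclei, and the ratios in the collagen divisions, 0.963 (0.743 to 1.25) and 0.937 (0.708 to 1.24), hold 1. The endothelial ratio was 0.909 with cell types from clusters, and the ratio of the 16 endothelial markers lies inside its interval. The ratio of the 16 macrophage markers, 0.739 (0.723 to 0.757), lies inside the macrophage interval. Vascular endothelial nuclei held more *Bmpr2* than sinusoidal ones in Flox, 1.63-fold (1.32 to 2.01), and in HKO the interval of this ratio (0.969 to 1.54) holds 1. In vascular nuclei *Bmpr2* stood at 1119.6 CPM (916 to 1355) in Flox and 690.0 CPM (553 to 850.1) in HKO, a ratio of 0.616 (0.459 to 0.826). When nuclei were thinned before the division, it stood at 1091 CPM (832 to 1404) in Flox and 981 CPM (735 to 1284) in HKO vascular nuclei. These intervals overlap, so the difference was not detectable at matched depth. Thinned sinusoidal nuclei held 706 CPM (638 to 779) in Flox and 601 CPM (531 to 677) in HKO, below the vascular interval in both libraries.

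*Acvrl1* (ENSMUSG00000000530, chr15:101128522-101145336, plus strand), the type I receptor for BMP9 and BMP10, was detected sparsely. Macrophages had the highest level, at 29.7 CPM (21.0 to 40.8) in Flox and 24.1 CPM (17.97 to 31.7) in HKO, followed by endothelial nuclei at 17.9 CPM (10.8 to 27.9) and 16.5 CPM (10.2 to 25.3). These neighbours overlapped in both libraries. Its UMIs numbered 19 and 21 in endothelial and 38 and 51 in macrophage nuclei. The ratio was 0.926 (0.474 to 1.82) in endothelial and 0.812 (0.523 to 1.27) in macrophage nuclei, so differences inside these intervals were not detectable at this depth. With cell types from clusters the macrophage ratio was 1.38.

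*Smad6* (ENSMUSG00000036867, chr9:63953076-64022059, minus strand) encodes an inhibitor that BMP signalling induces and that blocks the type I receptors. It was highest in endothelial nuclei, at 86.5 CPM (69.7 to 106) in Flox and 119 CPM (101 to 139) in HKO. Stellate nuclei came next at 48.9 and 55.2 CPM, macrophages followed at 27.4 and 21.8 CPM, and hepatocytes stood at 4.84 and 4.24 CPM. Cholangiocytes had no *Smad6* UMI in Flox and 9 in HKO, or 16.2 CPM (7.43 to 30.8), which overlaps the macrophage interval. The intervals of endothelial, stellate and macrophage nuclei did not overlap in either library. The endothelial ratio was 1.38 (1.054 to 1.80), the opposite direction to that of the 16 endothelial markers, and 1.43 (1.07 to 1.91) in sinusoidal nuclei. In sinusoidal nuclei thinned before the division it was 1.19, with an interval of 0.797 to 1.77 that holds 1. The thinned shares of endothelial nuclei with a *Smad6* UMI, 9.42% (7.26% to 12.0%) in Flox and 10.9% (8.37% to 13.8%) in HKO, overlap, so a higher level in HKO was not detectable at matched depth. In thinned hepatocyte nuclei the shares were 0.428% and 0.371%.

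*Id1* (ENSMUSG00000042745, chr2:152736251-152737410, plus strand), a helix-loop-helix protein gene that is a direct BMP target, was lower in HKO endothelial nuclei. It stood at 120.3 CPM (100.4 to 143) in Flox and 80.3 CPM (65.5 to 97.5) in HKO, a ratio of 0.668 (0.510 to 0.873). In sinusoidal nuclei the ratio was 0.644 (0.475 to 0.868), and 0.498 (0.293 to 0.822) when nuclei were thinned before the division. The ratio of the 16 endothelial markers, 0.833, lies inside the *Id1* interval for all endothelial nuclei. The thinned shares of endothelial nuclei with an *Id1* UMI, 8.79% (6.71% to 11.3%) in Flox and 5.89% (4.07% to 8.22%) in HKO, overlap.

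Endothelial nuclei had the highest *Id1* level, and in HKO its interval overlapped that of cholangiocytes. Macrophages were at 56.3 and 44.9 CPM, cholangiocytes at 48.8 and 63.2 CPM with intervals overlapping those of macrophages, and stellate nuclei, the lowest, at 7.83 and 8.71 CPM, and the intervals of these 3 ratios hold 1. Hepatocytes were at 20.5 CPM (19.2 to 21.9) in Flox and 23.6 CPM (21.8 to 25.5) in HKO, a ratio of 1.15 (1.04 to 1.28) that became 0.9995 when each nucleus was thinned. Although its level was low there, hepatocytes held 75.2% of *Id1* UMIs in the Flox library and 63.0% in the HKO library.

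*Id1* was higher in zone 1 than in zone 3 hepatocyte nuclei in both libraries. In Flox it stood at 23.9 CPM in zone 1 and 13.7 CPM in zone 3, 1.75-fold (1.49 to 2.06) higher in zone 1. In HKO it stood at 24.5 and 18.7 CPM, 1.31-fold (1.06 to 1.62) higher. *Smad6* was in the opposite order in Flox, at 4.20 CPM in zone 1 and 6.22 CPM in zone 3, and the HKO values of 3.80 and 5.85 CPM lay in the same order with an interval of the ratio (0.429 to 1.005) that reaches 1. *Bmpr2* did not differ between zones beyond counting error, with zone 1 over zone 3 ratios of 0.982 (0.903 to 1.07) and 1.03 (0.911 to 1.16).

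**Figure D4:**
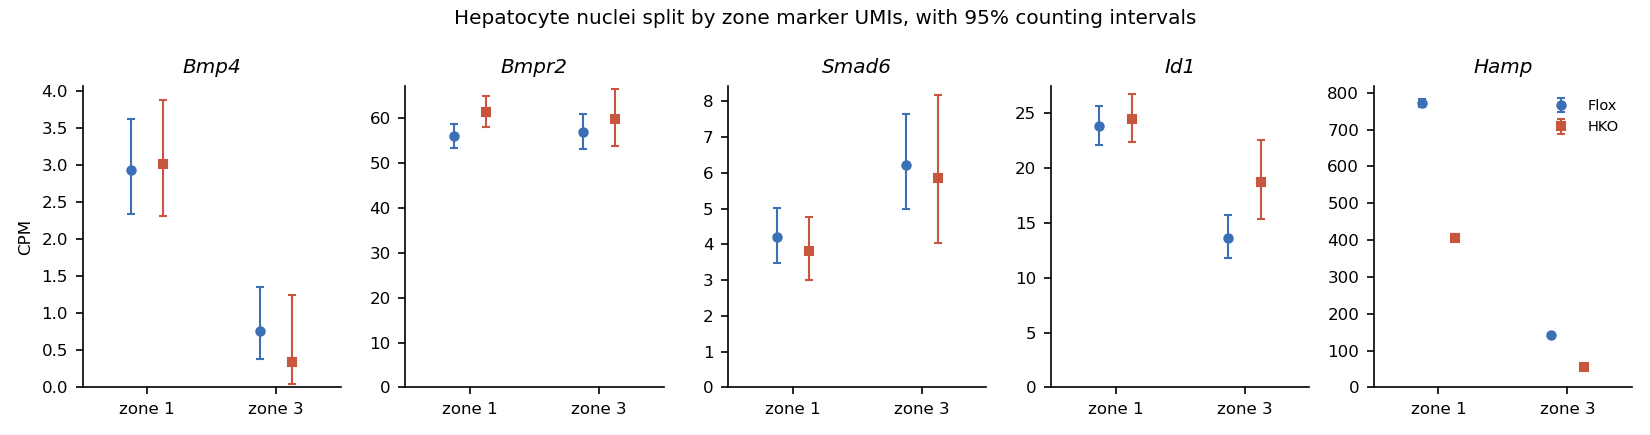
Level (CPM, linear axis from 0) of 5 genes in zone 1 and zone 3 hepatocyte nuclei of the Flox (blue circles) and HKO (red squares) libraries, with 95% counting intervals. *Bmp4*, *Id1* and *Hamp* are higher in zone 1 in both libraries, and *Bmpr2* is at 55.9 to 61.4 CPM in each group. Nuclei were grouped by the marker list with more UMIs, with no midlobular class.

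Across the set, no more than 1 member passed 2-fold in any type, so 1 gene decides each share. In hepatocytes 9 members had at least 20 UMIs and *Gdf2* alone, from the 27 UMIs given above, was at least 2-fold higher in HKO (2.83, and 1.95 to 2.99 under the alternative settings), beside 6.47% of all genes higher and 5.21% lower. In macrophages none of 4 reached 2-fold (2.72% of all genes were higher and 4.17% lower). Cholangiocytes had only 2 members with at least 20 UMIs, and neither reached 2-fold, beside 6.81% of genes higher and 5.82% lower. The median log2 ratio was -0.23 over the 7 endothelial members and -0.05 over all genes tested there, and 0.20 over the 9 hepatocyte members and -0.01 over all.

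**Figure D5:**
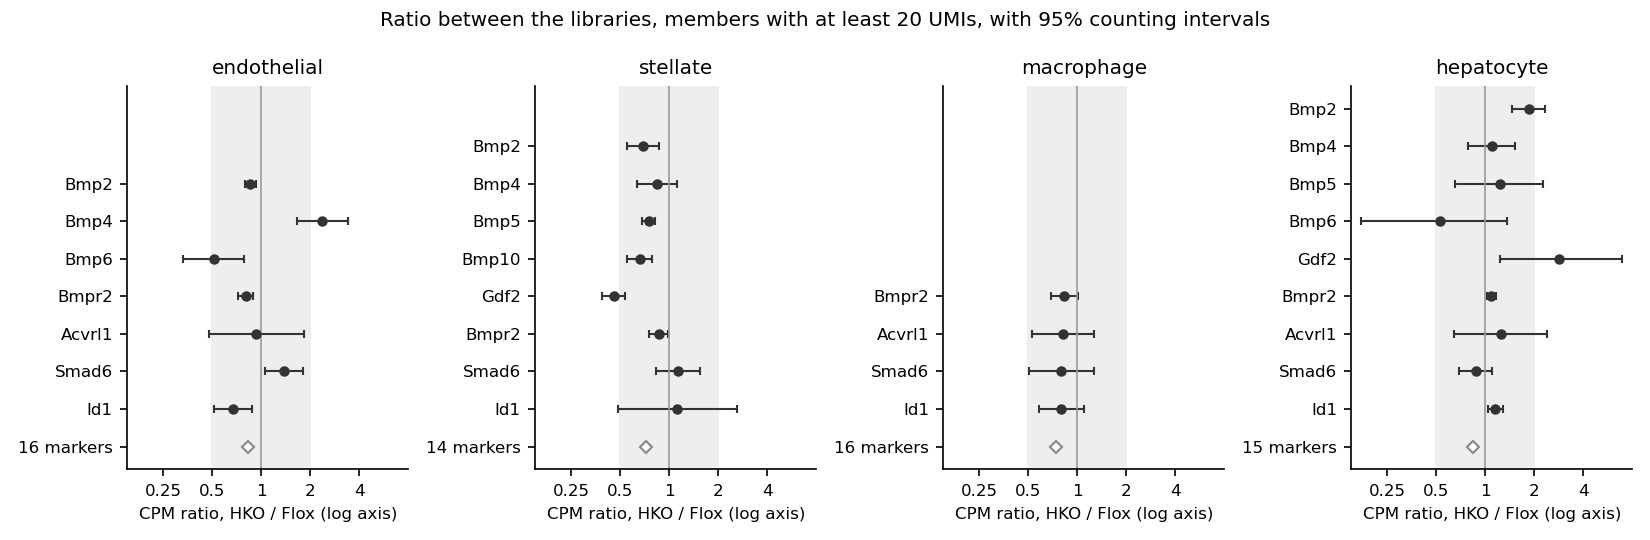
Ratio of CPM, HKO over Flox (horizontal log axis), for members with at least 20 UMIs in 4 cell types, with 95% counting intervals. Open diamonds show the summed markers of the type and the grey band spans 2-fold in each direction. *Bmp4* in endothelial (2.36), *Gdf2* in stellate (0.455) and *Gdf2* in hepatocyte nuclei (2.83) lie outside the band.

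Ratios of the other pathway genes, here and below, were taken without thinning. Among the other targets, *Hamp* was lower in HKO hepatocyte nuclei, at 559 CPM in Flox and 326 CPM in HKO, a ratio of 0.582 (0.568 to 0.597). In Flox it stood at 771 CPM in zone 1 and 142.0 CPM in zone 3, and in HKO at 407 and 56.2 CPM. In other nuclei *Hamp* was found at 9.58% to 14.6% of its hepatocyte level, much as the hepatocyte markers were. *Id2* had a hepatocyte ratio of 0.613 and *Id3* one of 0.671 (0.634 to 0.711). *Id3* was also lower in HKO endothelial nuclei (0.644, 0.556 to 0.745) and HKO macrophages (0.478, 0.416 to 0.549). The summed markers of the type had ratios of 0.837 in hepatocyte, 0.833 in endothelial and 0.739 (0.723 to 0.757) in macrophage nuclei. Their part in these ratios was not tested. *Atoh8*, another target, had a hepatocyte ratio of 1.29 (1.12 to 1.48), so at unmatched depth the targets did not share a direction in hepatocytes. Of the 6 genes on this list, *Hamp2* alone passed 2-fold in hepatocytes, from 33 to 136 UMIs, beside 6.47% of all hepatocyte genes higher and 5.21% lower. Its ratio was 6.86 (4.66 to 10.4), opposite in direction to that of *Hamp*. *Hamp2* is a close copy of *Hamp*, and how reads of the copies were told apart was not examined, so its value is uncertain.

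Co-receptors differed by cell type. *Eng*, which encodes the endothelial co-receptor endoglin for BMP9 and BMP10, stood at 877 CPM in Flox and 651 CPM in HKO endothelial nuclei, a ratio of 0.742 (0.675 to 0.815). *Hjv*, the hemojuvelin co-receptor of hepcidin control, was at 101 CPM in Flox and 126 CPM in HKO hepatocytes, with a ratio of 1.25 (1.20 to 1.31). *Rgmb*, which encodes a co-receptor of the repulsive guidance molecule family, was the only pathway gene of 22 measured in endothelial nuclei to pass 2-fold, from 46.1 to 20.5 CPM (0.445, 0.265 to 0.729), beside 3.12% of all endothelial genes lower and 2.35% higher. Of the hepcidin regulators in hepatocytes, *Tmprss6*, a protease that cleaves hemojuvelin, had a ratio of 0.653, *Tfr2* (transferrin receptor 2) one of 0.719 and *Hfe* one of 1.30 (1.08 to 1.56).

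The Smads that carry the signal passed 2-fold in 1 case, *Smad1* in cholangiocytes, at 2.05 with an interval of 0.860 to 5.96 that holds 1. It was 1 of 3 such Smads with at least 20 UMIs there, beside 6.81% of all cholangiocyte genes higher and 5.82% lower. In hepatocytes the ratios of *Smad1*, *Smad5* and *Smad4* were 1.16, 1.20 and 0.877, and *Smad9* was at 6.48 CPM in Flox and 11.1 CPM in HKO, with a ratio of 1.70 (1.44 to 2.01). The type I receptor genes *Bmpr1a* and *Acvr1* had hepatocyte ratios of 0.960 (0.891 to 1.035) and 0.964 (0.864 to 1.08). Among the inhibitors, *Smad7* was higher in HKO hepatocytes (1.40, 1.33 to 1.49) and lower in HKO macrophages (0.573, 0.480 to 0.684). *Bambi*, which encodes a pseudoreceptor, was lower in HKO stellate nuclei at 87.1 against 154 CPM (0.566, 0.458 to 0.697). The summed markers had ratios of 0.739 in macrophage and 0.719 in stellate nuclei.

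Of 14 genes of secreted antagonists, 8 had at least 20 UMIs in hepatocytes. Hepatocyte nuclei held the most UMIs of any type, 43965062 in Flox and 26422461 in HKO. The filter therefore admitted lower levels in them, and passing it does not rank cell types as sources. In hepatocytes *Kcp* passed 2-fold downwards, from 10.9 to 4.28 CPM (0.392, 0.316 to 0.482), and *Bmper* upwards, from 13 to 38 UMIs. *Bmper* was higher in endothelial nuclei, at 27.3 and 23.6 CPM, than in hepatocytes. *Chrd*, which encodes the BMP antagonist chordin, was at 20.2 and 12.3 CPM (0.608, 0.534 to 0.692), and *Fst*, which encodes follistatin, was at 12.1 and 22.1 CPM (1.83, 1.62 to 2.06). *Grem1*, which encodes Gremlin 1, had 1 UMI in all nuclei of the 5 types, so its level was at or below the limit of detection. Of the other ligand genes in hepatocytes, *Bmp7* was at 8.39 CPM in Flox and 4.81 CPM in HKO (0.573, 0.464 to 0.702), and *Bmp8b* had 17 and 38 UMIs (3.72, 2.05 to 7.03). In all, 3 of 35 pathway genes measured in hepatocytes were at least 2-fold higher and 1 was at least 2-fold lower, beside the 6.47% and 5.21% of all genes.

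The genes most like each member over 7 cell types and 2 libraries were named by Pearson's r of log2(CPM + 1) over these 14 points, which share library and depth. *Gdf2* was most like *Col1a1* (r = 0.981), the fibrillar collagen gene. Within thinned stellate nuclei, however, *Gdf2* was at 282 CPM with 0 or 1 and 270.5 CPM with 2 or more collagen UMIs in Flox. In HKO it was at 155 and 148 CPM, and the intervals of the 2 divisions overlap in both libraries. *Bmp10* was most like *Tcf21* (0.990), a transcription factor gene of stellate cells, and *Bmp5* most like *Mamdc2* (0.983). *Bmp2* was most like *Clec14a* (0.949), *Bmp6* most like *Fam174b* (0.976) and *Bmp4* most like *Gnao1* (0.985), with *Mgp* next (0.975). *Bmpr2* was most like *Lrrc58* (0.959), *Acvrl1* most like *Slc7a7* (0.970), *Smad6* most like *Capn5* (0.973) and *Id1* most like *Snx24* (0.972).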

How the data were processed

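The authors deposited counts: UMIs per gene and nucleus from 10x 3′ libraries, made with Cell Ranger (8.0.1) on GRCm38 without intronic reads, per the labels and the study's methods. Nuclei with fewer than 300 genes and those with the highest Scrublet doublet scores (701 of 9363 Flox, 920 of 10748 HKO) were removed. The number removed was set by an expected rate of 0.8% per 1000 nuclei, whereas Scrublet's own cut called 642 and 575.

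A nucleus took the type with most marker UMIs (at least 3, from at least 2 markers). It was left out as mixed where another type had 25% as many, or where hepatocyte markers reached 50% of the median share. The markers were fixed first, the rule after the data were seen. UMIs were summed per type and library and divided by their total (CPM). Intervals (95%) were exact Poisson for levels, exact conditional binomial for ratios and Clopper-Pearson for shares, and cover counting error only. A count of 0 allows 3 UMIs. Genes with at least 20 UMIs over both libraries were counted past 2-fold. With 1 library per genotype nothing was tested. The computations were tested on simulated data, with Python (3.11.15), scanpy (1.11.5) and edgeR (4.0.16, for TMM factors).

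The members and lists were chosen with earlier results of these data known. All 10 members are named, and the gene of most like pattern by correlation. Other pathway genes could be named where they had at least 20 UMIs in a type. Those named, and Grem1 with 1 UMI, were chosen after their values were seen. Themis was read as the targeted gene. Endothelial nuclei were called sinusoidal or vascular, and hepatocytes zone 1 or zone 3, by the list with more UMIs (at least 2). Alternatives were clusters in place of marker UMIs, doublets kept, at least 500 genes, totals without mitochondrial genes and Malat1, thinning to 1000 UMIs, TMM factors, 1 more marker UMI and minimums of 10 and 50 UMIs. Thinning before the endothelial division, and the division of stellate nuclei by collagen, were chosen after seeing the data.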

Additional observations from a re-analysis of the deposited data

Results flagged for a closer look

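For 4 members the ratio of HKO to Flox lay above 1 in one cell type and below 1 in another, each with a counting interval that leaves out 1. The difference between types was not tested, since each genotype has 1 library. *Bmp2* had a ratio of 1.85 in hepatocyte nuclei, 0.854 in endothelial nuclei and 0.690 in stellate nuclei, and its hepatocyte level was under 1% of its endothelial level. *Gdf2* had a ratio of 2.83 in hepatocyte nuclei, from 27 UMIs in all, and 0.455 in stellate nuclei. *Bmpr2* had ratios of 1.09 in hepatocyte, 0.799 in endothelial and 0.861 in stellate nuclei. *Id1* had ratios of 1.15 in hepatocyte and 0.668 in endothelial nuclei. When each nucleus was thinned, the hepatocyte ratios of *Bmpr2* and *Id1* were 0.993 and 0.9995, so these 2 no longer lay above 1.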

How the results depend on the processing

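Of 70 alternative ratios of members in the type where each was highest, 66 stayed within the interval of the value reported. Taking cell types from clusters gave 0.999 for *Bmp2* and 0.909 for *Bmpr2* in endothelial nuclei and 1.38 for *Acvrl1* in macrophages, and thinning gave 0.548 for *Gdf2* in stellate nuclei. In hepatocytes thinning turned *Bmpr2* (0.993) and *Id1* (0.9995) to just below 1. From few UMIs there, it also moved *Bmp5* from 1.23 to 0.488, *Bmp6* from 0.525 to 1.30, *Bmp4* from 1.10 to 1.82 and *Acvrl1* from 1.25 to 2.60. The cause was not tested. No paired analysis was possible because each genotype has 1 library.

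Counts of genes past 2-fold moved with the minimum of UMIs by construction, since low counts scatter more. With a minimum of 10 UMIs the counts higher and lower in HKO were 453 and 549 in endothelial, 497 and 838 in stellate, 501 and 645 in macrophage and 865 and 778 in cholangiocyte nuclei, against 225 and 299, 252 and 535, 280 and 429, and 415 and 355 with a minimum of 20. With 50 UMIs they were 52 and 101, 75 and 237, 102 and 194, and 78 and 79, and 592 were higher in hepatocytes against 939. Clusters gave 880 lower in endothelial and 539 higher and 2235 lower in macrophage nuclei. Thinning gave 445 higher in hepatocytes and 219 lower in cholangiocytes.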
